A study of Mus musculus with 2 samples.

Results

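Stem cells of the blood are marked by a small set of regulators. Transcripts of 9 of them were followed here in single cells of mouse bone marrow: the transcription factors Hlf, Mecom, Meis1, Hoxa5, Hoxa7, Hoxa9 and Hoxa10, the RNA-binding protein Msi2 and the surface receptor Procr. They were chosen by gene symbol, and all 9 were found among the 32285 genes of each count matrix. Droplet 3′ single-cell RNA-seq was deposited for a control (Ctrl) and for a Map4k4-cKO (cKO) sample, 1 library each, and each a mixture of 2 parts of bead-enriched c-Kit+ progenitors with 3 parts of red-cell-lysed marrow. The cKO mice carried Mx1-Cre and floxed Map4k4 (Map4k4 f/f). The control mice also carried Mx1-Cre, and the study's methods write their Map4k4 genotype as −/−, a notation left as it stands. All mice were of C57BL/6 background and 13 to 14 weeks old. The study's methods describe poly I:C injection, which induces Mx1-Cre through interferon, for the mice with floxed Map4k4, and whether the control mice were injected is not given in the sources used here. Mx1-Cre acts in many tissues that respond to interferon and is not limited to blood cells. The number of mice behind each library is not given in the sources used here, so no value below has a replicate check and no test between the conditions was possible.

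HLF and MECOM are transcription factors needed to keep the stem cell pool, and MEIS1 is a TALE-class homeodomain protein that binds DNA together with HOX proteins. HOX genes lie in clusters and encode homeodomain proteins, and those of the A cluster are active in immature blood cells, fall with differentiation and are kept on in many leukaemias. MSI2 holds back or promotes the translation of its target messages in stem cells, and PROCR, the receptor of protein C, is used to sort stem cells from mouse marrow.

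The 4 HOX genes lie in one cluster on the minus strand of chromosome 6 (GRCm38, GENCODE M21), with Hoxa5 at chr6:52201754-52204587, Hoxa7 at chr6:52214491-52221854, Hoxa9 at chr6:52223100-52231089 and Hoxa10 at chr6:52231197-52240854. The homeoboxes of Hoxa5 and Hoxa10, the coding stretch of the DNA-binding homeodomain, are shown because these genes differ in where they are expressed. Each lies within 1 coding exon, and the capitals mark the codons of the tryptophan-phenylalanine-glutamine-asparagine-arginine-arginine stretch in the recognition helix. Hoxa5 was read from chr6:52202632-52202811 and Hoxa10 from chr6:52232554-52232733, both on the minus strand and printed 5′ to 3′.
Hoxa5: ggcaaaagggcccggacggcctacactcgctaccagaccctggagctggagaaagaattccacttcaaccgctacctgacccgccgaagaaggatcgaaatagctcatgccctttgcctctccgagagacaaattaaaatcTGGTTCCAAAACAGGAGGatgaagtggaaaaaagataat
Hoxa10: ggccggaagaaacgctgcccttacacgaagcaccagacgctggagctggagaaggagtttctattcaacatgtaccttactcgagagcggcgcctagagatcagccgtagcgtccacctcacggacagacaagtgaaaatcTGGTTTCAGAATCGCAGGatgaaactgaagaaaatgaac
The homeoboxes of Hoxa5 and Hoxa10 shared 111 of 180 bases and 39 of 60 residues.

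The other members lie apart. Hlf was annotated at chr11:90336536-90390895, Meis1 at chr11:18879817-19018985 and Msi2 at chr11:88339382-88718513, all on the minus strand, Mecom at chr3:29951296-30548008 on the minus strand, and Procr at chr2:155751117-155755471 on the plus strand. No member shared exon bases on its own strand with another gene of the count matrices. On the opposite strand, Hoxaas3 overlapped 20.4% of the exon bases of Hoxa7, Gm16140 overlapped 8.5% of those of Meis1 and Mecomos 0.7% of those of Mecom. Whether strand was used in counting is not given in the sources used here, so part of the Hoxa7 signal cannot be told apart from its antisense neighbour.

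After the filters on cells, 9965 Ctrl and 6718 cKO cells were kept, with 71282090 and 64241692 unique molecular identifiers (UMIs, one per captured transcript molecule) and medians of 4111 and 6243.5 UMIs per cell. The libraries shared 3010 barcode sequences, none of them with the same UMI total. Levels are given as CPM, the UMIs of a gene scaled by the total UMIs of the same cells. Map4k4 itself separated the libraries little, at 72.6 CPM in Ctrl and 64.3 CPM in cKO over all kept cells, and it was higher in cKO by 0.55 on the log2 scale (95% interval 0.31 to 0.79) in the GMP/ProNeu gate described below. In the HSC and MPP gates, also described below, its log2 ratio (cKO over Ctrl) was 0.09 (−0.31 to 0.48) and −0.11 (−0.39 to 0.15). These reads come from the 3′ end of the transcript and need not lie in the deleted part, so they do not check the labels. Cells were sorted into 18 gates by marker genes, none of them a member, and a gate is a group of cells that resembles its namesake by those markers. The HSC gate (hematopoietic stem cell-like, 14 markers such as Esam, Angpt1 and Slamf1) held 155 Ctrl and 70 cKO cells, and the MPP gate (multipotent progenitor-like, with Flt3 and Cd34 among its markers) 290 and 64. The neutrophil path followed with GMP/ProNeu (granulocyte progenitors, 1020 and 1281 cells), PreNeu/imNeu (neutrophil precursors and immature neutrophils, 2339 and 1797) and mNeu (mature neutrophils, 1726 and 1417). The gates differed in depth between the libraries, and the cKO cells of the GMP/ProNeu gate were shallow, with a median of 2653 UMIs against 15993 in Ctrl. All intervals below are 95% intervals for counting error only, and UMIs of the same cell are not fully independent.

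Hlf fell steeply from the HSC to the MPP gate. In the HSC gate it had 449 UMIs in Ctrl, or 326 CPM (interval 296 to 357), and 206 UMIs in cKO, or 262 CPM (228 to 301). In the MPP gate it had 111 CPM (100.3 to 122) in Ctrl and 62.2 CPM (48.6 to 78.4) in cKO. The HSC level thus stood clear of the MPP level in each library. In Ctrl the gate next in order was the megakaryocyte gate at 48.0 CPM (35.8 to 62.9), whose 74 cells held 52 UMIs.

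Mecom, which encodes the zinc-finger factor EVI1, was confined in a similar way. Its HSC-gate level was 125 CPM (107 to 146) in Ctrl and 107 CPM (85.3 to 132) in cKO, and its MPP-gate level 35.0 CPM (29.1 to 41.6) and 20.1 CPM (12.8 to 30.2). It reached 24.0 CPM (15.7 to 35.2) in Ctrl megakaryocyte-gate cells, a value that overlapped with that of the Ctrl MPP gate. In the GMP/ProNeu gate little was left, with 1.55 CPM in Ctrl and 0.554 CPM in cKO.

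Meis1 had a second site of high expression. The HSC gate gave 287 CPM (260 to 317) in Ctrl and 234 CPM (202 to 271) in cKO, and the MPP gate 99.6 CPM (89.5 to 110) and 65.7 CPM (51.7 to 82.3). The Ctrl megakaryocyte gate gave 231 CPM (203 to 261), well above the MPP gate and 80.4% (68.3 to 94.4) of the HSC level. The 15 cKO cells of that gate gave 234 CPM (177 to 304). Basophil/mast-gate cells held 60.5 CPM (43.8 to 81.5) in Ctrl and plasmacytoid dendritic cell (pDC) gate cells 32.9 CPM (17.0 to 57.5).

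**Figure D1:**
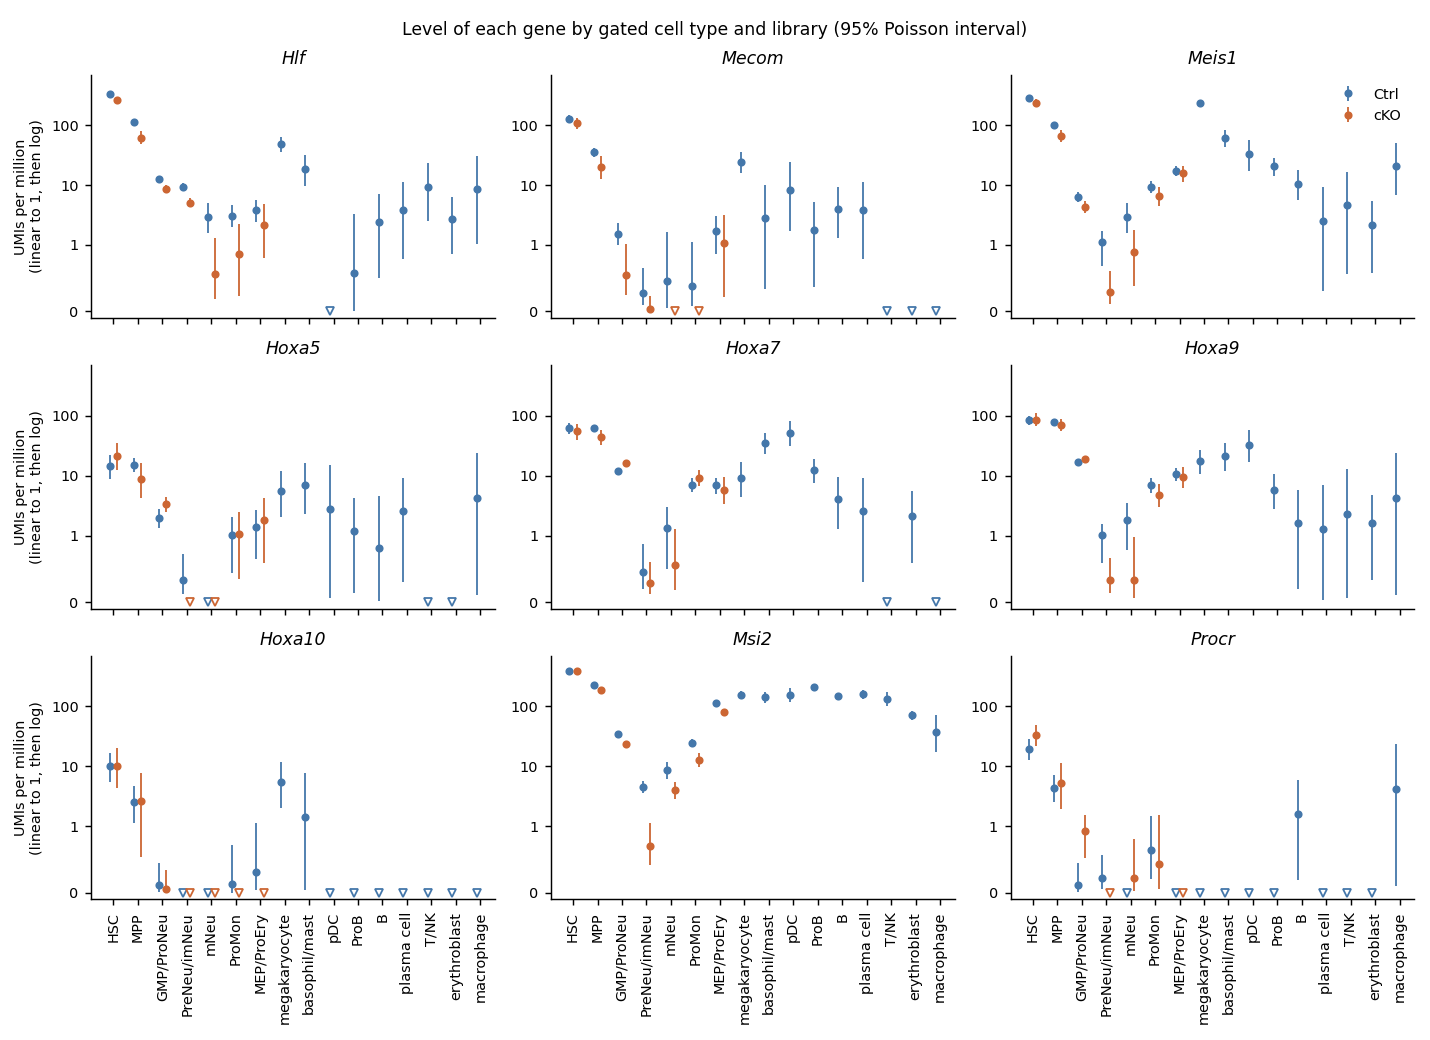
Level of each of the 9 genes, in CPM on an axis that is linear up to 1 and logarithmic above, in the gated cell types with at least 50 cells of a library (blue, Ctrl; orange, cKO). Points are sums over all cells of a gate, bars are 95% Poisson intervals and open triangles are gates with 0 UMIs; every gene but Hoxa5 in Ctrl had its highest point in the HSC gate, and Msi2 was at 136 CPM or more in the lymphoid, plasma cell and pDC gates of Ctrl.

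Hoxa5, Hoxa7 and Hoxa9 did not fall between the HSC and the MPP gate of the Ctrl library. Hoxa9, a partner of MEIS1 in leukaemia, had 84.1 CPM (69.5 to 101) in the HSC and 77.9 CPM (69.1 to 87.6) in the MPP gate of Ctrl, and 86.5 CPM (67.2 to 110) and 70.1 CPM (55.6 to 87.2) in cKO. Hoxa7 had 61.6 CPM in both gates of Ctrl (49.2 to 76.2 and 53.7 to 70.2), and 54.7 CPM (39.6 to 73.7) and 43.8 CPM (32.5 to 57.7) in cKO. For Hoxa5 the Ctrl values were 14.5 CPM (8.86 to 22.4) and 15.3 CPM (11.5 to 19.9), and the cKO values 21.6 CPM (12.6 to 34.6) and 8.76 CPM (4.20 to 16.1), on 17 and 10 UMIs. The HSC and MPP intervals overlapped for all 3 genes in both libraries. The ratio of the MPP to the HSC level had an interval that held 100% for these genes, except for Hoxa5 in cKO. There the MPP level was 40.5% (16.6 to 93.6) of the HSC level. The 3 genes were not confined to these gates in Ctrl. Hoxa7 had 52.1 CPM (31.4 to 81.4) in the pDC gate, which overlapped with its HSC level, and 35.2 CPM in the basophil/mast gate. Hoxa9 had 32.9 CPM (17.0 to 57.5) and 21.1 CPM (11.8 to 34.8) in the same gates. Hoxa5 had 7.03 CPM (2.28 to 16.4) in the basophil/mast gate, on 5 UMIs, and 1 UMI in the pDC gate.

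Hoxa10 fell from the HSC to the MPP gate in Ctrl, on few molecules. It had 14 UMIs (10.2 CPM, 5.55 to 17.0) in the Ctrl and 8 UMIs (10.2 CPM, 4.40 to 20.1) in the cKO HSC gate. In the MPP gate 9 UMIs gave 2.50 CPM (1.14 to 4.74) in Ctrl and 3 UMIs gave 2.63 CPM (0.542 to 7.68) in cKO. The Ctrl intervals of the HSC and MPP gates did not overlap and those of cKO did. In Ctrl the megakaryocyte gate came second, ahead of the MPP gate, with 6 UMIs at 54.5% (17.2 to 151) of the HSC level. The 15 cKO cells of that gate held 0 UMIs. Over all kept cells it had only 45 UMIs in Ctrl and 12 in cKO, and how low a level could be seen differed between gates. The Ctrl mNeu gate held 0 UMIs, and 3 UMIs, the floor used here for a 0, would be 0.677 CPM there. In the PreNeu/imNeu gate, also with 0 UMIs, that floor lay at 0.168 CPM in Ctrl and 0.125 CPM in cKO. The intervals for the share of the HSC level in that gate ended at 2.32% and 1.92%.

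Msi2 was the most broadly expressed. The HSC gate led with 387 CPM (355 to 422) in Ctrl and 391 CPM (348 to 437) in cKO, followed by the MPP gate with 230 CPM (214 to 246) and 187 CPM (162 to 213). In Ctrl the pro-B cell (ProB) gate had 210 CPM (189 to 233), which overlapped with the MPP gate. Plasma cell, pDC, megakaryocyte, B, basophil/mast and T/NK gates lay between 136 and 161 CPM in Ctrl with overlapping intervals, and the erythroid progenitor gate (MEP/ProEry) had 114 CPM (106 to 123). Neutrophil and monocyte gates were lower, with 24.9 CPM (21.5 to 28.6) in the Ctrl monocyte progenitor (ProMon) gate and 4.58 CPM (3.64 to 5.68) in Ctrl PreNeu/imNeu cells.

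Procr was concentrated in the HSC gate. It had 27 UMIs in 23 of 155 Ctrl cells (19.6 CPM, 12.9 to 28.5) and 26 UMIs in 22 of 70 cKO cells (33.1 CPM, 21.6 to 48.5). The MPP gate had 4.44 CPM (2.54 to 7.21) in Ctrl and 5.25 CPM (1.93 to 11.4) in cKO. No Procr UMI was seen in the Ctrl MEP/ProEry, megakaryocyte, basophil/mast, ProB, plasma cell, T/NK, pDC or mNeu gates. In gates with few UMIs such a 0 sets only a loose bound. The interval ended at 55.4% of the HSC level in the pDC, 46.5% in the T/NK and 28.4% in the basophil/mast gate. The Ctrl macrophage gate came next in level after the HSC and MPP gates, but this place rests on fewer than 2 UMIs. In that shallow gate 2 UMIs would give 8.47 CPM, above the 4.44 CPM of the MPP gate. The Ctrl ProMon, PreNeu/imNeu, GMP/ProNeu and B gates held 5, 4, 2 and 2 Procr UMIs. In cKO the basophil/mast, plasma cell and mNeu gates (25, 32 and 1417 cells) held 2 Procr UMIs each. Of each library's Procr UMIs, 68.3% of 63 (Ctrl) and 54.2% of 59 (cKO) came from the HSC and MPP gates together. The libraries were enriched for c-Kit+ cells, so these are not shares of unmixed marrow.

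Set against its own HSC-gate level, each gene showed how fast it was lost along the neutrophil path. In the MPP gate Hlf kept 34.1% (29.7 to 39.1) of its HSC level in Ctrl and 23.7% (17.9 to 31.2) in cKO, Mecom 27.9% and 18.8%, and Meis1 34.7% and 28.1%. Hoxa9 kept 92.7% (74.4 to 116) and 81.0% (57.9 to 114), and Hoxa7 99.9% (77.5 to 130) and 80.0% (52.2 to 123). The intervals of Hoxa7 and Hoxa9 thus lay above those of Hlf, Mecom and Meis1 in both libraries. The same separation held in the GMP/ProNeu gate, where Hoxa9 kept 20.3% (16.3 to 25.5) in Ctrl and 22.2% (17.0 to 29.3) in cKO while Meis1 kept 2.22% (1.77 to 2.76) and 1.84% (1.38 to 2.43). Msi2 lay between, with 9.13% (8.10 to 10.3) and 5.98% (5.13 to 6.98).

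Hlf was the member with the most UMIs left in neutrophil precursors. The PreNeu/imNeu gate held 168 Hlf UMIs in 145 of 2339 Ctrl cells and 122 UMIs in 111 of 1797 cKO cells, or 2.88% (2.40 to 3.45) and 1.94% (1.54 to 2.44) of its HSC level. Meis1, which had about as many UMIs as Hlf in the HSC gate (396 against 449 in Ctrl), had 20 and 7 UMIs there, or 0.389% (0.235 to 0.609) and 0.125% (0.0495 to 0.262). Mecom, Hoxa7, Hoxa9 and Msi2 stood at or below 1.2% of their HSC level in that gate in both libraries. Hoxa5, on 6 UMIs in Ctrl and 0 in cKO, gave 2.31% (0.759 to 5.96) in Ctrl, an interval that holds the value of Hlf. In the mNeu gate Hlf was down to 13 UMIs in Ctrl and 5 in cKO, so that Hlf and Meis1 had equal counts, 13 each, in the Ctrl mNeu cells but 168 against 20 in the Ctrl precursors. Hlf was found in precursors at every level of cell-cycle genes, with 32, 50 and 86 UMIs in the lowest, middle and highest tertile of Ctrl cells (10.4, 8.87 and 9.34 CPM). In cKO the lowest tertile, at 2.85 CPM (1.84 to 4.21), lay below the middle one at 7.55 CPM (5.44 to 10.2). One Ctrl precursor held 10 of the UMIs, and no cKO precursor held more than 3.

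**Figure D2:**
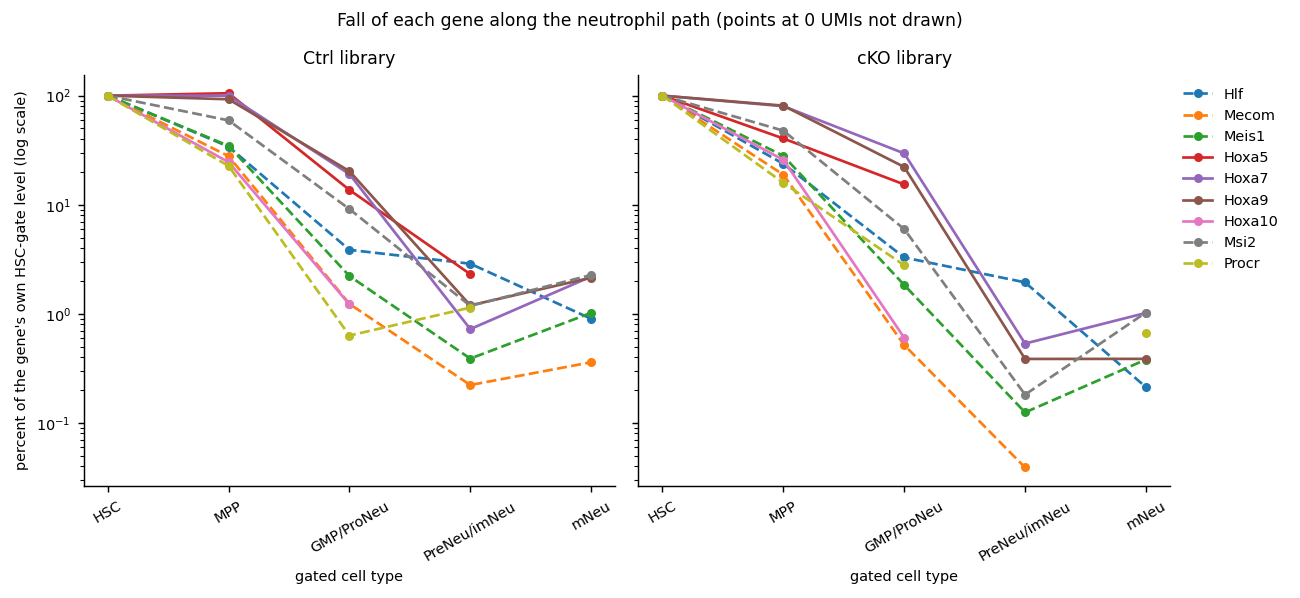
Level of each gene as a percent of its own HSC-gate level (log axis) along the neutrophil path from the HSC gate to the mNeu gate, with the Ctrl library on the left and the cKO library on the right. Solid lines are HOX genes, dashed lines the other members, and gates with 0 UMIs have no point; in both panels Hoxa7 and Hoxa9 stay near the top down to GMP/ProNeu, and Hlf keeps 2.88% in Ctrl and 1.94% in cKO in the PreNeu/imNeu gate.

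Within the HSC gate, several members were higher in cells with little cell-cycle RNA. Cells were divided into tertiles by the summed level of 14 cell-cycle genes such as Mki67, Top2a and Pcna, a list chosen after the data had been seen. Ctrl cells gave 576 CPM (492 to 672) of Hlf in the lowest tertile, 317 CPM (270 to 370) in the middle and 212 CPM (176 to 252) in the highest, with 41, 64 and 50 cells. The cKO cells gave 335 CPM (274 to 407), 294 CPM (208 to 404) and 187 CPM (145 to 238), on 34, 11 and 25 cells. The lowest and the highest tertile did not overlap in either library.

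The other members differed in the same comparison. Procr had 16 of its 27 Ctrl UMIs in the lowest tertile, 56.2 CPM (32.1 to 91.3) against 6.78 CPM (1.85 to 17.4) in the highest, and 62.5 CPM (37.6 to 97.6) against 11.3 CPM (3.09 to 29.0) in cKO. Mecom had 190 CPM (143 to 248) against 91.5 CPM (68.7 to 119) in Ctrl and 187 CPM (142 to 243) against 59.6 CPM (36.9 to 91.0) in cKO. Msi2 had 474 CPM (398 to 562) against 310.1 CPM (267 to 358) in Ctrl and 536 CPM (457 to 625) against 267 CPM (215 to 326) in cKO. The lowest and highest tertiles were thus apart in both libraries for Procr, Mecom and Msi2 as well as for Hlf. The share of all genes apart in the same split is not given here, so the difference cannot be called particular to these members.

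Meis1 and Hoxa7 were apart in 1 library each. Meis1 had 397 CPM (327 to 477) against 207 CPM (172 to 247) in Ctrl, and 289 CPM (232 to 357) against 196 CPM (152 to 248) with overlapping intervals in cKO. Hoxa7 had 87.9 CPM (56.9 to 130) against 44.1 CPM (28.8 to 64.6) with overlapping intervals in Ctrl, and 95.4 CPM (63.9 to 137) against 34.0 CPM (17.6 to 59.5) in cKO. The intervals of Hoxa5 and Hoxa10, on at most 11 UMIs per tertile, overlapped in both libraries. Hoxa9 did not separate, with 91.4 CPM (59.7 to 134) against 71.2 CPM (51.3 to 96.2) in Ctrl and 95.4 CPM (63.9 to 137) against 85.1 CPM (57.4 to 122) in cKO. Hlf was the only one of the 5 genes drawn whose Ctrl and cKO intervals were apart within a tertile, the lowest. Its UMIs were unevenly spread, with up to 19 in a Ctrl and 20 in a cKO cell of the HSC gate, which these intervals do not cover. The share of all genes apart between the libraries in that tertile is not given here, so the difference cannot be called particular to Hlf. Median depth was also greater in the highest than in the lowest tertile, at 10641 against 7671 UMIs in Ctrl and 12766 against 9655 in cKO, and its part in these levels was not tested.

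**Figure D3:**
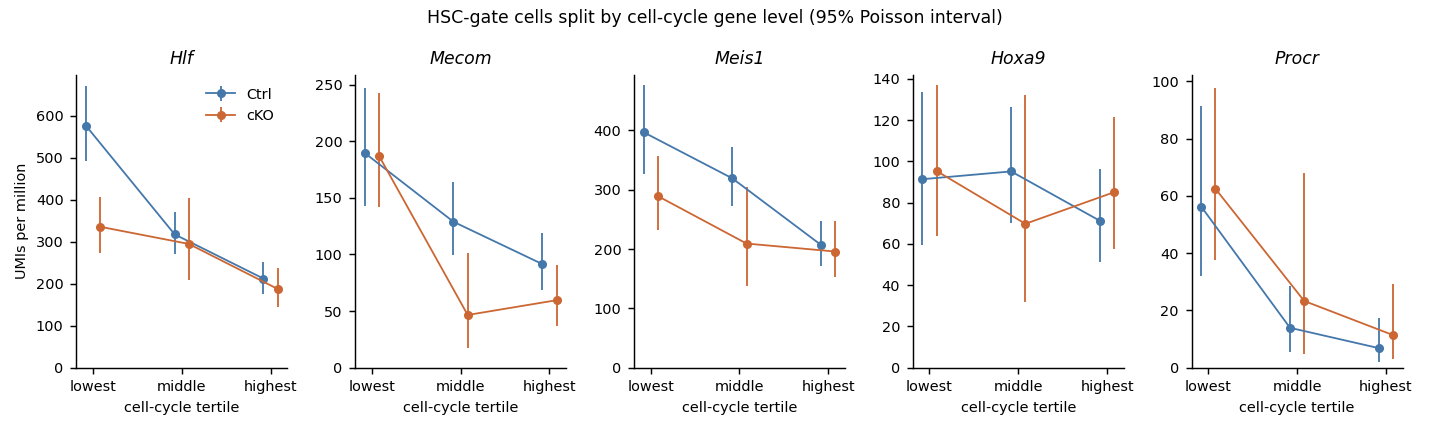
CPM of Hlf, Mecom, Meis1, Hoxa9 and Procr in HSC-gate cells divided into tertiles of cell-cycle gene level (x axis), for Ctrl (blue) and cKO (orange), with 95% Poisson intervals; each panel has its own axis from 0. Hlf, Mecom and Procr fall from the lowest to the highest tertile in both libraries, while Hoxa9 stays between 69.7 and 95.4 CPM.

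Flt3, the receptor that marks the step from stem cells to multipotent progenitors, gave a further split of the HSC gate. The 34 Ctrl cells of that gate with a Flt3 UMI had 466 CPM of Hlf (401 to 538), and the 121 without had 269 CPM (237 to 303). In cKO the 27 cells with a Flt3 UMI had 335 CPM (277 to 402) and the 43 without had 205 CPM (165 to 252). Hlf was thus higher in the HSC-gate cells with Flt3 in both libraries. So was Msi2, at 463 against 356 CPM in Ctrl and 503 against 302 CPM in cKO. Meis1 was not, at 239 CPM (194 to 292) against 307 CPM (273 to 343) in Ctrl. The HSC-gate cells with a Flt3 UMI were deeper, with medians of 10526.5 against 7442 UMIs in Ctrl and 11281 against 9360 in cKO. For this split too, the share of all genes that differed is not given here. In the MPP gate the order of Hlf was reversed in cKO. Cells with a Flt3 UMI had 51.45 CPM (37.9 to 68.2) there and the 14 cells without had 110 CPM (69.75 to 165). In Ctrl the MPP values were 115 CPM (103.5 to 128) and 88.5 CPM (66.1 to 116), with overlapping intervals.

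Single cells of the HSC gate carried several members at once. A median of 4 of the 9 genes was detected per cell in both libraries, 5 or more in 65 of 155 Ctrl and 33 of 70 cKO cells, and none in 6 and 3 cells. In the MPP gate the median was 3. Procr and Hlf were found together. Of Ctrl HSC-gate cells with a Procr UMI, 22 of 23 also had a Hlf UMI (95.7%, 78.1 to 99.9), against 78 of the 132 without (59.1%, 50.2 to 67.6). In cKO the counts were 21 of 22 (95.5%, 77.2 to 99.9) and 30 of 48 (62.5%, 47.4 to 76.1). Cells with and without Procr had median depths of 8915 and 8033.5 UMIs in Ctrl and 11184.5 and 9348.5 in cKO. Cells with Hlf also held Mecom more often, 61.0% (50.7 to 70.6) against 38.2% (25.4 to 52.3) in Ctrl and 58.8% (44.2 to 72.4) against 21.1% (6.05 to 45.6) in cKO, with intervals that overlapped. For Hoxa9 the shares among cells with and without Hlf were 49.0% (38.9 to 59.2) and 41.8% (28.7 to 55.9) in Ctrl and 60.8% (46.1 to 74.2) and 42.1% (20.3 to 66.5) in cKO, with intervals that overlapped. For Meis1 they were 93.0% (86.1 to 97.1) and 67.3% (53.3 to 79.3) in Ctrl, with intervals apart. In cKO the Meis1 shares were 88.2% and 84.2%, with overlap. In the Ctrl MPP gate Mecom (39.5% and 16.9%) and Meis1 (71.8% and 45.2%) were also apart, and Hoxa9 was not. In the cKO MPP gate all of these overlapped. The share of other gene pairs apart in such splits is not given here, so co-detection with Hlf cannot be called particular to Procr.

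Shares of cells depend on depth, so every cell was also thinned to 1000 UMIs. In the HSC gate 50 of 153 Ctrl cells (32.7%, 25.3 to 40.7) and 19 of 68 cKO cells (27.9%, 17.7 to 40.2) then had a Hlf UMI, against 64.5% and 72.9% before thinning. In each library 2 HSC-gate cells were too shallow to be thinned. At least 1 of the 9 genes was seen in 70.6% (62.7 to 77.7) of thinned Ctrl and 69.1% (56.7 to 79.8) of thinned cKO cells of the HSC gate, and in 44.6% (38.8 to 50.6) and 34.4% (23.0 to 47.3) of the MPP gate. Mature neutrophils served as the background. There the thinned share was 2.03% (1.39 to 2.85) of 1578 Ctrl cells and 0.884% (0.457 to 1.54) of 1358 cKO cells, at median depths before thinning of 2258 and 6037 UMIs. The PreNeu/imNeu gate, at 2.13% and 0.879%, was at this background for the 9 genes together. For Hlf alone it was not. The thinned share with a Hlf UMI was 1.30% (0.881 to 1.85) of Ctrl precursors against 0.380% (0.140 to 0.826) of mNeu cells, and 0.703% (0.364 to 1.23) of cKO precursors against 0 of 1358 mNeu cells, where the interval ended at 0.271%. Between the libraries, the intervals of the thinned shares overlapped in both the HSC and the MPP gate.

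The comparison of the libraries asks whether the cKO label goes with another level of these genes in cells of the same gate. Cells of the same gate need not be alike in make-up between the libraries. The lowest cell-cycle tertile took in 41 of 155 HSC-gate cells in Ctrl but 34 of 70 in cKO. Procr was at 56.2 CPM (Ctrl) and 62.5 CPM (cKO) within that tertile, with overlapping intervals. Hlf was at 576 and 335 CPM there, with intervals apart, and the share of all genes apart there is not given here. For the highest tertile the values were 6.78 and 11.3 CPM for Procr and 212 and 187 CPM for Hlf, with overlapping intervals. The part of this shift in the HSC-gate ratios was not tested. In the HSC gate no member differed by 2-fold. All 9 had at least 10 UMIs over both libraries, and 0 were higher and 0 lower in cKO beyond 2-fold, against 3.24% of all 10459 genes higher and 6.03% lower, and the median log2 ratio (cKO over Ctrl) was 0.00 over the members and −0.09 over all genes. The log2 ratio was −0.31 (−0.56 to −0.07) for Hlf and −0.29 (−0.55 to −0.04) for Meis1, the only members whose interval lay off 0, where 9.88% of all genes had an interval below 0 and 6.26% one above 0. Msi2 was the most tightly bounded, at 0.01 (−0.19 to 0.22). Procr had the highest ratio, 0.76 (−0.08 to 1.59), and Hoxa10 the widest interval, 0.00 (−1.46 to 1.36), so that a 2-fold difference lies within the intervals of these 2 genes and of Hoxa5 (0.58, −0.45 to 1.58).

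In the MPP gate Hlf, Mecom, Meis1, Hoxa7 and Msi2 were lower in cKO. None passed 2-fold in either direction, against 2.39% of all genes higher and 8.9% lower, and the median of the members was −0.49 beside −0.18 over all genes. The interval lay below 0 for 5 of the 9 and above 0 for none, against 17.6% and 9.17% of all genes, with Hlf at −0.84 (−1.22 to −0.47), Mecom at −0.80 (−1.50 to −0.15), Meis1 at −0.60 (−0.98 to −0.24), Hoxa7 at −0.49 (−0.96 to −0.04) and Msi2 at −0.30 (−0.52 to −0.08). For Hlf the MPP interval of Ctrl (100.3 to 122 CPM) and that of cKO (48.6 to 78.4 CPM) did not overlap. Hoxa9 stayed at −0.15 (−0.53 to 0.21). Other marker genes also differed between the libraries in this gate. Kit was at −0.65 (−0.93 to −0.39), Flt3 at −0.49 (−0.74 to −0.26), Cd34 at −0.12 (−0.28 to 0.04) and Elane at 0.67 (0.55 to 0.79). The part of such differences in the members' ratios was not tested. With the mean of the proportions of single cells in place of summed UMIs, 2 members, Hlf at −1.17 and Mecom at −1.09, fell beyond 2-fold in the MPP gate. The share of all genes beyond 2-fold by that measure is not given here.

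In the GMP/ProNeu gate the interval of the ratio lay above 0 for Hoxa5, Hoxa7 and Procr, and below 0 for Hlf, Meis1, Mecom and Msi2. The share of all genes with an interval off 0 in this gate is not given here. These differences thus cannot be called particular to the members. Hoxa7 had 190 UMIs (11.8 CPM, 10.2 to 13.6) in Ctrl and 263 (16.2 CPM, 14.3 to 18.3) in cKO, a log2 ratio of 0.46 (0.19 to 0.74). Hoxa5 had 1.98 CPM on 32 UMIs in Ctrl and 3.32 CPM on 54 UMIs in cKO, a ratio of 0.75 (0.09 to 1.42). Hlf stood at −0.54 (−0.87 to −0.23), Meis1 at −0.57 (−1.03 to −0.11) and Msi2 at −0.60 (−0.79 to −0.41). Against a median of −0.28 over all genes, the last 3 differed by −0.27 to −0.32. Hoxa9 was at 0.17 (−0.07 to 0.41). Among marker genes in this gate, Kit was at −0.95 (−1.06 to −0.83), Cd34 at −0.65 (−0.82 to −0.49), Mpo at −0.04 and Elane at 0.33. The part of cell make-up in the members' ratios was not tested here either.

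Of the 8 members with at least 10 UMIs there, 1 was higher and 1 lower beyond 2-fold, against 1.4% and 6.02% of all genes. The lower one was Mecom, with 25 UMIs in Ctrl and 9 in cKO (−1.48, −2.77 to −0.34). The higher one was Procr, with 2 UMIs in Ctrl and 15 UMIs, spread over 13 cells, in cKO (2.90, 0.79 to 6.07). Procr no longer counted when at least 20 UMIs were asked for. The gate was far shallower in cKO. Its cells with at least 5000 UMIs gave 11.9 (Ctrl) and 16.5 (cKO) CPM for Hoxa7, 12.7 and 8.60 for Hlf, and 2 and 14 UMIs for Procr. For Hlf those cells held 200 of the 203 UMIs in Ctrl and 132 of the 140 in cKO. Their levels thus had to be near those of the whole gate, and the part of depth in these ratios was not tested. With the mean over single cells Hoxa9 turned to −0.29 and Meis1 to −1.24 in this gate.

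**Figure D4:**
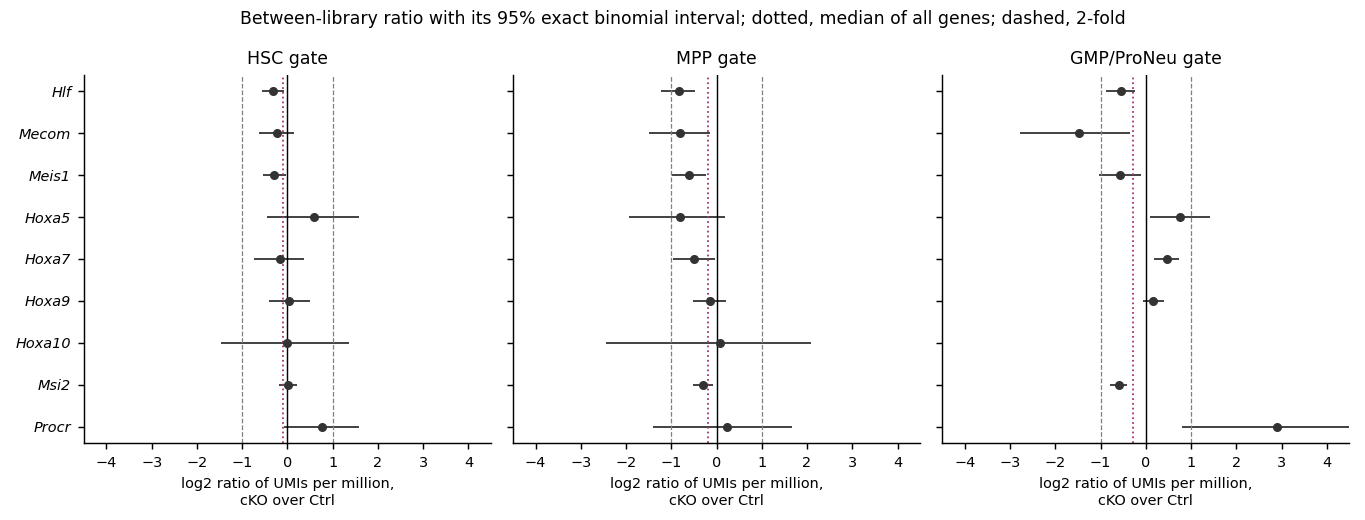
Log2 ratio of CPM, cKO over Ctrl, for the 9 genes in the HSC, MPP and GMP/ProNeu gates, with 95% exact binomial intervals cut at the axis ends (Hoxa10 in GMP/ProNeu, with 3 UMIs, is not drawn). The dotted line is the median over all genes and the dashed lines mark 2-fold; only Mecom and Procr in the GMP/ProNeu gate lie beyond 2-fold, on 25 and 9 UMIs and on 2 and 15 UMIs in Ctrl and cKO.

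Farther along the neutrophil path, the cKO library held less of what remained. In the PreNeu/imNeu gate 3 of the 5 members with at least 10 UMIs were lower beyond 2-fold and 0 higher, against 12.5% and 1.27% of all genes, where the median over all genes was −0.40. Msi2 went from 82 UMIs (4.58 CPM, 3.64 to 5.68) in Ctrl to 17 UMIs (0.710 CPM, 0.413 to 1.14) in cKO, a ratio of −2.69 (−3.54 to −1.92). Meis1 and Hoxa9 were the others, on 20 and 7 and on 18 and 8 UMIs. In the mNeu gate all 5 members with at least 10 UMIs were lower beyond 2-fold, against 25.2% of all genes lower and 1.66% higher and a median of −0.53, and the interval lay below 0 for 4 of them, as it did for 54.0% of all genes (above 0 for 4.44%).

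Transcripts of other cell types also differed between the libraries, though not all in the same direction. In PreNeu/imNeu cells the 7 B-cell markers summed to 19.4 CPM in Ctrl, with all 7 detected, and to 1.96 CPM in cKO, with 4 detected. The 7 plasma cell markers summed to 45.1 and 5.43 CPM, all 7 detected in both libraries. In the HSC gate the plasma cell sums were 79.0 and 28.0 CPM and in the GMP/ProNeu gate 88.2 and 92.4 CPM. Jchain, a plasma cell marker, was at −2.33 in the GMP/ProNeu gate. Megakaryocyte markers summed to 410 and 325 CPM in the HSC gate and to 47.9 and 26.2 CPM in PreNeu/imNeu cells. The mNeu markers were higher in cKO in the HSC gate (518 and 1056 CPM) and the GMP/ProNeu gate (434 and 743 CPM). In the MPP gate they were lower (532.5 and 394 CPM). Igha, an immunoglobulin transcript of plasma cells, lay lower in cKO by more than 4 log2 units in each of the HSC (−4.19), MPP (−4.27) and GMP/ProNeu (−4.32) gates. Markers of neutrophil precursors were also present in the HSC gate, at 6478 CPM in Ctrl and 3181 CPM in cKO over 9 genes, and Ifitm1, itself an HSC marker that responds to interferon, was higher in cKO by 1.54 there. The part of these transcripts in the members' ratios was not tested.

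Over all kept cells, 5 of the 9 members were lower in cKO beyond 2-fold and none higher, against 22.4% and 1.87% of all genes and a median of −0.53. Meis1 went from 22.3 CPM (1586 UMIs) to 8.44 CPM (542 UMIs), Msi2 from 64.6 to 24.4 CPM, Hlf from 21.1 to 9.65 CPM, Mecom from 6.03 to 2.09 CPM and Hoxa10 from 0.631 to 0.187 CPM. Procr had about the same level in both libraries, 0.884 and 0.918 CPM. Fewer cells of a type and less RNA per cell cannot be told apart in such sums, and the gates differed in size. The HSC and MPP gates made up 1.94% and 5.06% of UMIs in Ctrl but 1.22% and 1.78% in cKO. Lymphoid gates rich in Msi2 were also smaller, with 258 ProB cells in Ctrl and 2 in cKO. With median-of-ratios scaling only 2 members stayed beyond 2-fold, and the share of all genes under that scaling is not given here.

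Weighting the gates alike brought the libraries closer for 8 of the 9 members and moved them apart for Procr. With each gate given its Ctrl share of UMIs, the log2 ratio was −0.22 for Msi2 in place of −1.41, −0.46 for Meis1 in place of −1.40, and −0.66 for Mecom in place of −1.53. Hlf kept −0.62 of −1.13. Hoxa7, at −0.48 over all cells, came to 0.20, and Procr, at 0.06, to 0.67. These weights also take in gates with very few cKO cells. The 2 cKO ProB cells, with 7 Msi2 UMIs, were weighted at 2.395% of UMIs in place of 0.0219%. Their part in the Msi2 value was not tested. With cKO shares in place of Ctrl shares the values were −0.57 for Msi2, −0.53 for Meis1, −0.75 for Mecom, −0.68 for Hlf, 0.12 for Hoxa7 and 0.71 for Procr. The GMP/ProNeu gate gave 28.5% of the Hoxa9 UMIs in Ctrl and 54.3% in cKO, 24.7% and 52.9% of those of Hoxa7, and 19.8% and 55.1% of those of Hoxa5.

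**Figure D5:**
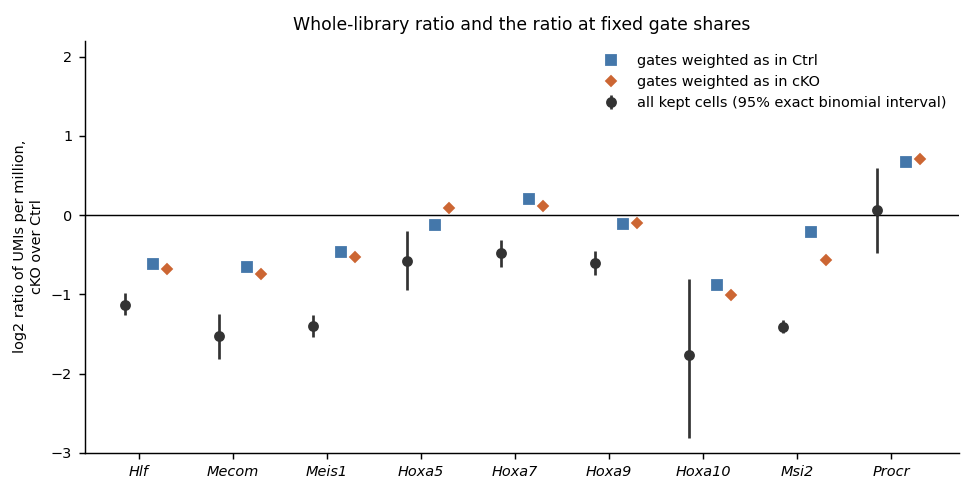
Log2 ratio of CPM, cKO over Ctrl, for each gene over all kept cells (black, with 95% exact binomial interval) and with the gates given the UMI shares of the Ctrl (blue squares) or the cKO library (orange diamonds), which have no interval. At fixed shares all 9 genes lie between −1.01 and 0.71, above the whole-library point in each case.

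Other HOX genes were sparse. Of 17 further genes of the A, B and C clusters, 5 had at least 10 UMIs in the HSC gate, namely Hoxa3, Hoxb2, Hoxb3, Hoxb4 and Hoxb5, of which 2 were higher beyond 2-fold in cKO and none lower, beside 3.24% and 6.03% of all genes. Those 2 were Hoxb2, on 3 and 8 UMIs, and Hoxb5, a marker of long-term stem cells, on 4 and 7 UMIs (1.62, −0.36 to 3.84). Hoxb4, which can expand stem cells when overexpressed, had the most UMIs, 39 in Ctrl (28.3 CPM) and 18 in cKO (22.9 CPM). In the MPP gate 3 were countable, 2 of them lower and none higher, beside 8.9% and 2.39% of all genes, and in the GMP/ProNeu gate 6, of which 1 was higher and 1 lower, beside 1.4% and 6.02%. Hoxa3 had 28 UMIs in Ctrl and 0 in cKO in the MPP gate. Its ratio there was −1.56 with cKO set to the floor of 3 UMIs, and the interval ended at −1.17. In the GMP/ProNeu gate Hoxa3 had 17 against 2 UMIs (−3.10, −6.25 to −1.02). In the HSC gate its ratio was 0.11 (−1.37 to 1.49).

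Of 10 genes for TALE partners of HOX proteins and for the upkeep of HOX expression, 8 had at least 10 UMIs in the HSC gate and 0 passed 2-fold, beside 3.24% of all genes higher and 6.03% lower, with a median of −0.28 beside −0.09 over all genes. Kmt2a, a histone methyltransferase that keeps HOX genes on, had 254 and 258 CPM in the HSC gate.

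Of 12 other stem cell transcription factors, all 12 were countable in the HSC gate and 2 were higher beyond 2-fold in cKO and none lower, beside 3.24% and 6.03% of all genes, with a median of −0.17. Nkx2-3 had 45 UMIs (32.6 CPM) in Ctrl and 54 (68.7 CPM) in cKO, a ratio of 1.07 (0.48 to 1.68), and the same held in the MPP gate at 1.11 (0.33 to 1.87). Tcf15, a factor of quiescent stem cells, had 6 and 10 UMIs (1.55, −0.05 to 3.29). Gata2 was level in the HSC gate, at 268 and 239 CPM, and lower in the GMP/ProNeu gate at −1.14 (−1.64 to −0.66). The closest relatives of Hlf, the PAR-domain factors Dbp and Tef, stayed within 2-fold in the HSC gate, at 0.81 (−0.19 to 1.81) and 0.33 (−0.73 to 1.35), and Msi1, the relative of Msi2, had no UMI in either library. Of 10 interferon-stimulated genes, 9 were countable in the HSC gate and 1, Ifi27l2a, was lower beyond 2-fold and none higher, beside 6.03% and 3.24% of all genes, with a median of −0.30.

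The patterns of the members over the 23 combinations of gate and library with at least 50 cells were compared with those of 11939 other genes, by Pearson correlation of log2(CPM + 1) across these points, which share libraries and differ in depth. Hoxa7 and Hoxa9 were alike at r = 0.91, whereas Hoxa9 and Hoxa10 were at r = 0.75 and Hoxa5 and Hoxa10 at r = 0.82. Hoxa10 lay nearest to Mecom (r = 0.91) and Hlf (r = 0.90), and Hoxa7 and Hlf were far apart at r = 0.50. Outside the set, the closest genes to Hlf were Vldlr (r = 0.914), Mdfi (0.906) and Ltbp3 (0.876), and those to Mecom were Efcc1 (0.909), Nkx2-3 (0.900) and Myct1 (0.886). Hoxa10 had Vldlr (0.949), Myct1 (0.939) and Nkx2-3 (0.929) nearest.

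The remaining members had other neighbours. Hoxa9 lay closest to Sirt3 (r = 0.946), Ncs1 (0.940) and Armcx1 (0.920), and Hoxa7 to Afap1l1 (0.930), Ncs1 (0.904) and Pank1 (0.899). Meis1 lay closest to Dapp1 (0.950), Muc13 (0.943) and Ptov1 (0.917), Hoxa5 to Sorbs3 (0.902), Mdga1 (0.898) and Dipk1b (0.897), Msi2 to B230354K17Rik (0.945), Ppp1r13b (0.940) and Ktn1 (0.940), and Procr to Cdk18 (0.915), Snx24 (0.908) and Mdfi (0.876). Genes with few UMIs, such as Ncs1 (169) and Snx24 (116), can rank high on sparse counts.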

How the data were processed

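The values deposited are unnormalized UMI counts, which the authors obtained with Cell Ranger 5.0.0 and the mm10 genome, with the same 32285 genes in each library. Kept cells had between 200 and 9000 genes and no more than 30% of UMIs from mitochondrial genes. No doublet caller was run. A cell took the gate with the highest mean scaled marker level if at least 3 markers were detected, the score reached 0.5 and the lead over the next gate 0.1, and otherwise stayed ungated (1761 Ctrl and 1463 cKO cells). In every gate named here its own markers outnumbered those of any other class among its 10 leading genes. Cells were assigned by these same markers, so this is no independent check of what a gate is. UMIs were summed per gate and library and divided by the total (CPM). Levels carry exact Poisson intervals, shares Clopper-Pearson intervals and log2 ratios exact binomial intervals at 95%. Ratios were counted for genes with at least 10 UMIs over both libraries, and a library at 0 was set to a floor of 3 counts. With 1 library per group no test was made, in place of which 2-fold differences were counted over all genes. The genes named are the 9 members, the pathway lists, Map4k4, gate markers and the 3 genes most like each member. The members and lists were chosen with earlier results of these data known. Ratios and intervals were tested on simulated data. Python 3.11.15, numpy 2.4.6, scipy 1.17.1, pandas 2.3.3 and matplotlib 3.10.9 were used, with GENCODE M21 for coordinates and sequences. Alternatives changed the cell filters, the gate margin, the HSC markers, the scaling, the UMI minimum and the thinning. Some genes and sequences are not reported here.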

Additional observations from a re-analysis of the deposited data

Results flagged for a closer look

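Hoxa7 moved in opposite directions between the libraries in neighbouring gates. Its log2 ratio, cKO over Ctrl, was −0.49 (−0.96 to −0.04) in the MPP gate and 0.46 (0.19 to 0.74) in the GMP/ProNeu gate. Each interval lay on its own side of 0 for counting error, but there was 1 library per group and the difference between the gates was not tested. The share of all genes with an interval off 0 in the GMP/ProNeu gate is not given here. Hoxa7 shares exon bases with the antisense gene Hoxaas3, and its part in these values was not tested.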

How the results depend on the processing

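No paired analysis was possible because there is 1 library per condition and the labels share a single replicate number. No alternative moved the number of members highest in the HSC gate, or the number beyond 2-fold there, by over 1.5 times. The counts beyond 2-fold that moved by more than that were those in the MPP gate, from 0 to 2 with the mean of single-cell proportions, over all kept cells, from 5 to 2 with median-of-ratios scaling, and in the GMP/ProNeu gate, from 2 to 1 with a minimum of 20 UMIs. In the GMP/ProNeu gate the count was 3 with the mean of single-cell proportions (Meis1 at −1.24), with median-of-ratios scaling (Hoxa5 at 1.02) and with no minimum of UMIs (Hoxa10 at −1.01, on 3 UMIs). The shares of all genes beyond 2-fold under these alternatives are not given here, so the counts cannot be read against a background. Without thinning, the share of cells with any of the 9 genes was 96.1% (Ctrl) and 95.7% (cKO) in the HSC gate and 91.4% and 98.4% in the MPP gate, and thinned to 2000 UMIs it was 81.8% and 88.1% and 63.3% and 54.7%, more UMIs per cell by construction. Over the alternatives, 2 of them chosen after the data had been seen (at least 2000 UMIs per cell, and without the 5% of cells with most UMIs), the HSC-gate ratio stayed between −0.34 and −0.21 for Hlf, −0.37 and −0.18 for Meis1 and 0.55 and 0.86 for Procr, while Msi2 (−0.04 to 0.11), Hoxa9 (−0.25 to 0.14) and Hoxa10 (−0.33 to 0.22) crossed 0. Depth limits Hoxa10, Procr and Hoxa5 most, with 45 and 12, 63 and 59, and 162 and 98 UMIs in Ctrl and cKO.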
